A study of Mus musculus with 12 samples.

Results

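Hearts of sham-operated mice given gastrodin at 50 mg/kg/day were compared with hearts of sham-operated mice given the vehicle alone. The comparison used 4 of the 12 libraries of the study, chosen by their labels: numbers 11 and 12 (Sham 50 mg) and numbers 7 and 8 (Sham 0 mg). All 4 came from wild-type C57BL/6 mice at postnatal day 45 that had the sham operation without angiotensin II, and dosing was by the gastric route for 7 days. The other 8 libraries were a sham group at 5 mg (numbers 9 and 10) and an angiotensin II arm (AngII) at 0, 5 and 50 mg, with 2 libraries each. The labels do not say whether the 2 libraries of a group came from separate animals, and a p-value here speaks only of how these libraries vary.

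Gastrodin is a phenolic glucoside from the orchid Gastrodia elata. Healthy heart muscle draws most of its energy from the oxidation of fatty acids in mitochondria, and its cardiomyocytes lie among fibroblasts, which make collagen and other matrix proteins, vessel cells and resident macrophages. Stress hormones such as glucocorticoids act on all of these cells through a nuclear receptor that turns a shared set of genes up or down.

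Total counts were 73764148 and 72269590 in the Sham 50 mg libraries, against 73321325 and 77966222 in the Sham 0 mg libraries. Mitochondrial genes and nuclear copies of mitochondrial sequence took most of them, and all genes other than these and the ribosomal RNA loci held 7.003 and 9.08% of the counts in Sham 50 mg, against 7.56 and 10.4% in Sham 0 mg. Ribosomal RNA loci took 11.1% of the counts of Sham 50 mg number 12 (Wilson 95% interval 11.107 to 11.121%, counting error only), and between 0.0893 and 0.188% in the other 3 libraries. The 15 cardiomyocyte markers, which check the labelled tissue, were present in every library, with summed levels of 5773 and 4948 CPM (counts scaled to a common library size) in Sham 50 mg and 9419 and 7417 CPM in Sham 0 mg. The correlation of log2 CPM across genes was 0.918 between the Sham 50 mg libraries and 0.920 between the Sham 0 mg libraries.

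Of 16723 genes tested, 25 differed between Sham 50 mg and Sham 0 mg at an adjusted p under 0.05 (0.149%), by the quasi-likelihood test of edgeR with p-values adjusted after Benjamini and Hochberg. Among them 14 were higher (0.0837%) and 11 lower (0.0658%) in Sham 50 mg, and in all 25 the 2 libraries of one group lay outside the range of the other. Over all genes tested, both Sham 50 mg libraries lay above both Sham 0 mg libraries in 21.9% and below both in 20.7%, and the median log2 fold change was 0. At an unadjusted p under 0.05, 755 genes (4.51%) were higher and 787 (4.71%) lower. The calls rest heavily on Sham 0 mg number 7: without it only Rpl21 passed, and the adjusted p of the other 24 genes ran between 0.0541 and 0.485, while all 25 kept their sign. Many of the 25 also missed the threshold without Sham 0 mg number 8, Sham 50 mg number 11 or Sham 50 mg number 12. The last is the library with the large share of ribosomal RNA. In each of these fits all 25 kept their sign, so the calls below depend on each of the 4 compared libraries.

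Of the 25 genes, 11 share near-identical sequence, or exon bases on the same strand, with another gene. For 10 of these the difference was no longer called once the counts of the partners were added together. The sums were chosen after the data were seen. The other 14 genes have no such partner, and all 14 passed also when overlapping and near-identical genes were summed throughout. So did the potassium channel gene Kcnj14 with its partner Gm5522. Some of the 14 share exon bases with a gene on the opposite strand, among them Gdpd3, Baiap2l1, Gm11127, Cpxm2 and Cdkn1a. Pairs on opposite strands were not summed, and the strandedness of the libraries is not stated. The 15 genes, the 14 and Kcnj14, are described first, by role, and the genes that share sequence after them.

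In Sham 50 mg hearts, 3 genes that restrain growth signals rose. Errfi1, an adaptor protein that inhibits receptors of the epidermal growth factor family (chr4:150853919-150868892 on GRCm38), had 14.1 and 10.3 CPM in Sham 50 mg hearts, against 1.77 and 2.15 CPM in Sham 0 mg hearts. Both treated libraries lay well above both vehicle libraries, and the log2 fold change was 2.63 ± 0.33 (SE) with an adjusted p of 0.00654. Cdkn1a, the cell cycle inhibitor p21 (chr17:29090976-29100727), had 12.4 and 14.6 CPM in Sham 50 mg hearts, against 3.34 and 3.40 CPM in Sham 0 mg hearts. Its log2 fold change was 2.00 ± 0.32, with an adjusted p of 0.0289 and no overlap. Ddit4, a stress-induced inhibitor of the mTORC1 kinase (chr10:59949669-59951834), had 36.6 and 20.5 CPM in Sham 50 mg hearts, against 4.55 and 6.70 CPM in Sham 0 mg hearts. The spread between the treated libraries was wide, but the lower one was still above both vehicle libraries, and the log2 fold change was 2.34 ± 0.37 with an adjusted p of 0.0289.

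The promoter of Errfi1 is shown because it holds a cyclic AMP response element, and that of Ucp3, a gene that fell, because it holds the nuclear receptor motif AGGTCA. Each is the 250 bases before an annotated start, the more downstream of 2 for Errfi1, on the plus strand, from RefSeq on GRCm38.p6, with matches in capitals. Errfi1 spans chr4:150854820-150855069 and Ucp3 chr7:100472741-100472990.
Errfi1: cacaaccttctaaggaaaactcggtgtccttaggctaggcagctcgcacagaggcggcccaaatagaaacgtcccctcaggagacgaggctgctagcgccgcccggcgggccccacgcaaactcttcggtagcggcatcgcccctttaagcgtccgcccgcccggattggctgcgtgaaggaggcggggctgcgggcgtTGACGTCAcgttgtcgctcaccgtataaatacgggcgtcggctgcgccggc
Ucp3: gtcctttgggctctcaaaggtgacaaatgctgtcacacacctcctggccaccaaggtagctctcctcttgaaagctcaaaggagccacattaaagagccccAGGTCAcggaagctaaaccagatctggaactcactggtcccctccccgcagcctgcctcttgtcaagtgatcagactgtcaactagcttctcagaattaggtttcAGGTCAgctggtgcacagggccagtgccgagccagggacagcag
The motifs searched on both strands were TGACGTCA (cyclic AMP response element), AGGTCA (nuclear receptors), AGAACA (steroid receptors) and CACGTG (E-box). Promoters were matched for 11 of the 15 genes, 14 promoters in all. TGACGTCA was found in 1 of the 14, against 1.55% of all 32851 promoters, and AGGTCA in 2 of the 14, against 14.02%. AGAACA was found in 2, against 16.1%, and CACGTG in 1, against 6.02%. A match is a run of letters and was not tested for binding.

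A pair of genes of the cell surface and matrix also rose. Ccdc80, a secreted matrix protein of fibroblasts and fat cells (chr16:45093402-45128077), had 26.3 and 18.8 CPM in Sham 50 mg hearts, against 5.15 and 7.39 CPM in Sham 0 mg hearts. The groups did not overlap, and its log2 fold change of 1.85 ± 0.32 passed narrowly, with an adjusted p of 0.0498. It missed the threshold without any 1 of 7 libraries, AngII 50 mg number 6, both Sham 0 mg, both Sham 5 mg and both Sham 50 mg libraries. Fxyd6, which regulates the sodium pump (chr9:45370185-45396159), had 8.42 and 6.30 CPM in Sham 50 mg hearts, against 1.33 and 1.00 CPM in Sham 0 mg hearts. Its log2 fold change was 2.66 ± 0.46 with an adjusted p of 0.0491.

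Another 3 genes had counts in both Sham 50 mg libraries and none in either Sham 0 mg library, so that a fold is given as a lower bound against a floor of 3 counts over the group. Gdpd3, an enzyme that cleaves lysophospholipids (chr7:126766334-126775649), had 936 and 1066 counts in Sham 50 mg and 0 in both Sham 0 mg libraries, and was at least 706-fold higher. In the 8 other libraries it reached at most 0.182 CPM, against 17.2 and 14.9 CPM in Sham 50 mg. Cdo1, which starts the breakdown of cysteine to taurine, had 48 and 84 counts in Sham 50 mg and 0 in Sham 0 mg, and was at least 45.2-fold higher. Unlike Gdpd3 it was present in all other groups, at 0.709 and 1.16 CPM in Sham 5 mg and at 0.244 to 1.80 CPM in the AngII libraries. The predicted gene Gm11127 had 80 and 55 counts in Sham 50 mg and 0 in Sham 0 mg, and was at least 49.2-fold higher. Like Cdo1 it was present in all other groups, at 0.310 and 0.472 CPM in Sham 5 mg and 0.229 to 0.605 CPM in the AngII libraries. Between 50 and 5 mg in sham hearts its log2 fold change was 1.51, which was not called. Against vehicle, the adjusted p was 0.0077 for Gdpd3, 0.0223 for Cdo1 and 0.0266 for Gm11127.

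Among the 7 genes of the 15 that fell, 2 belong to metabolism. Ucp3, a carrier of the inner mitochondrial membrane whose level follows fatty acid supply in muscle, had 0.736 and 0.182 CPM in Sham 50 mg hearts, against 7.31 and 5.26 CPM in Sham 0 mg hearts. The treated libraries lay far below the vehicle libraries, with a log2 fold change of -3.80 ± 0.61 and an adjusted p of 0.0289. Acad12, a member of the acyl-CoA dehydrogenase family (chr5:121596775-121618938), had 2.57 and 1.45 CPM in Sham 50 mg hearts, against 9.59 and 7.11 CPM in Sham 0 mg hearts. Its log2 fold change was -2.05 ± 0.35 with an adjusted p of 0.0404, and it missed the threshold without any 1 of the 6 sham libraries.

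Kcnj14, an inwardly rectifying potassium channel (chr7:45816460-45824782), had 0.533 and 0.223 CPM in Sham 50 mg hearts, against 5.59 and 7.499 CPM in Sham 0 mg hearts. The other 8 libraries lay between 3.18 and 8.86 CPM, so that both treated libraries were the lowest of the 12, and the log2 fold change was -4.13 ± 0.61 with an adjusted p of 0.0223. Summed with its copy Gm5522, the 2 genes gave -4.28 ± 0.62. Baiap2l1, a membrane-bending adaptor of the actin skeleton (chr5:144264526-144358112), had 1.25 and 1.23 CPM in Sham 50 mg hearts, against 27.8 and 14.1 CPM in Sham 0 mg hearts. For this gene the vehicle libraries were the ones that stood apart: Sham 5 mg had 1.11 and 0.508 CPM and the AngII libraries 0.850 to 10.5 CPM. Its log2 fold change was -4.08 ± 0.62 with an adjusted p of 0.0249.

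Cpxm2, a carboxypeptidase-like protein (chr7:132032687-132154739), had 2.48 and 2.70 CPM in Sham 50 mg hearts, against 22.7 and 10.1 CPM in Sham 0 mg hearts. The log2 fold change was -2.66 ± 0.42, with an adjusted p of 0.0266 and no overlap. Tle6, a member of the Groucho family (chr10:81590904-81601073), had 0.221 and 0.279 CPM in Sham 50 mg hearts, against 2.55 and 1.21 CPM in Sham 0 mg hearts. Its log2 fold change was -2.89 ± 0.45 with an adjusted p of 0.0266, and the other 8 libraries lay between 1.71 and 3.33 CPM. The Sham 50 mg levels of Tle6 rest on 12 and 20 counts. Over 12 other processing settings its log2 fold change ran from -2.91 to -0.67, and 8 of them kept the call. Fam19a2, a secreted protein related to chemokines, had 0 counts in both Sham 50 mg libraries and 54 and 61 in Sham 0 mg, and was at least 37.9-fold lower, with an adjusted p of 0.0377.

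**Figure D1:**
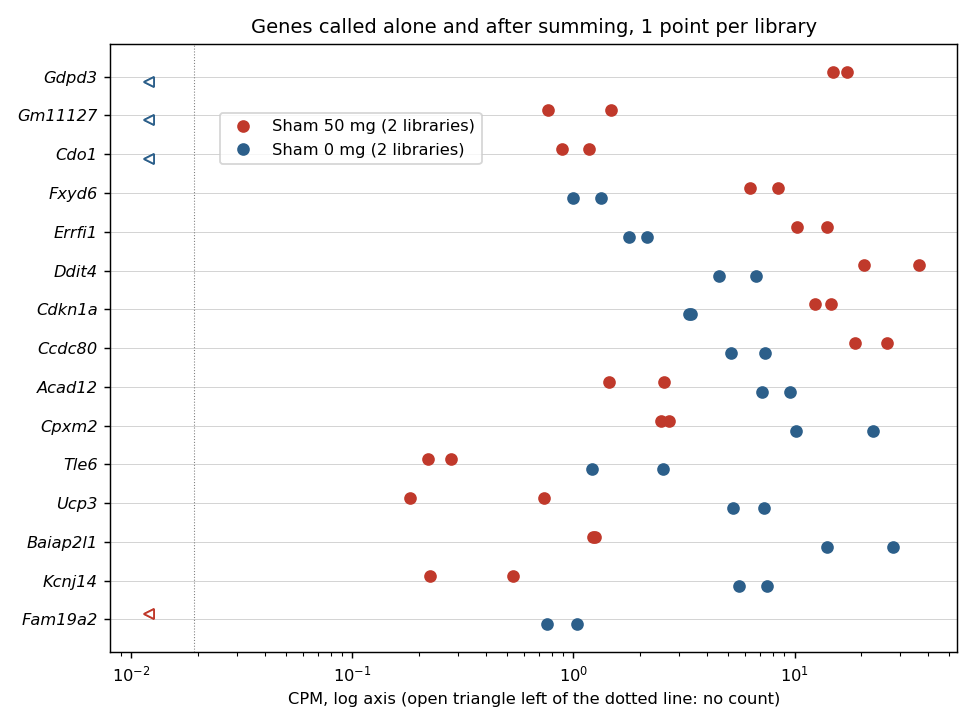
Level in CPM (log axis) of the 15 genes called alone and after summing, 1 point per library, with Sham 50 mg in red and Sham 0 mg in blue. The groups overlap in no gene, and open triangles mark Gdpd3, Gm11127 and Cdo1 in Sham 0 mg and Fam19a2 in Sham 50 mg, which had no count.

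The called genes that share sequence were led by ribosomal protein genes and pseudogenes. Ribosomal proteins build the machine that makes protein, and their genes have many processed pseudogenes, which are copies of the messenger RNA put back into the genome. Rpl21 (chr5:146832890-146837032) had 17.05 and 16.6 CPM in Sham 50 mg hearts, against 0.810 and 0.762 CPM in Sham 0 mg hearts, with a log2 fold change of 4.42 ± 0.34 and an adjusted p of 0.000131. Summed with its 37 partners, the family had 120 and 113 CPM in Sham 50 mg, against 101 and 105 CPM in Sham 0 mg, and the log2 fold change was 0.17 ± 0.27. The share of the family's counts given to Rpl21 itself was 14.2 and 14.7% in Sham 50 mg, against 0.7997 and 0.727% in Sham 0 mg.

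The pseudogene Rpsa-ps10 had 69.6 and 59.1 CPM in Sham 50 mg hearts, against 3.18 and 3.66 CPM in Sham 0 mg hearts, and a log2 fold change of 4.23 ± 0.46. Its family of 5 genes, with the parent Rpsa, had 203 and 181 CPM in Sham 50 mg, against 215 and 211 CPM in Sham 0 mg, so that the sum turned the sign to -0.15 ± 0.28. The pseudogene Rps26-ps1 had 55.0 and 14.5 CPM in Sham 50 mg hearts, against 0.579 and 0.462 CPM in Sham 0 mg hearts, and a log2 fold change of 6.06 ± 0.74. Together the 4 genes of the Rps26 family gave 0.42 ± 0.33. Rpl3-ps2 went the other way, with 0.294 and 0.349 CPM in Sham 50 mg hearts, against 4.13 and 4.51 CPM in Sham 0 mg hearts, and a log2 fold change of -3.74 ± 0.61. The 6 genes summed with Rpl3 gave 0.28 ± 0.46. Gm10036, whose family is that of Rpl11, had 18.2 and 6.58 CPM in Sham 50 mg hearts, against 0.424 and 0.187 CPM in Sham 0 mg hearts, and the family of 6 gave 0.26 ± 0.30.

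The stretches below show how little separates each pseudogene from its parent. Each pair is the stretch of 90 bases of the parent's coding sequence with the most differences, from GENCODE M21 on GRCm38, and capitals mark the bases that differ. Bases are counted from the start codon of the parent: 130 to 219 for Rpsa, 1 to 90 for Rps26 and 952 to 1041 for Rpl3. Rpsa-ps10 lies at chr3:150072658-150073542 (minus strand), Rps26-ps1 at chr8:107439131-107439579 (minus strand) and Rpl3-ps2 at chrX:74170653-74171866 (plus strand).
Rpsa-ps10: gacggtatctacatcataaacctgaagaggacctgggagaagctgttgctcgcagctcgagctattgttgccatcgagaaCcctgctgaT
Rpsa: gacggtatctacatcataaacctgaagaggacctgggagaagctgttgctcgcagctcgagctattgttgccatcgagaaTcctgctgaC
Rps26-ps1: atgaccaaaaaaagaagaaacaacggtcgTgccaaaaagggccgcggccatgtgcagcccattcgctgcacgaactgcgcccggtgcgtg
Rps26: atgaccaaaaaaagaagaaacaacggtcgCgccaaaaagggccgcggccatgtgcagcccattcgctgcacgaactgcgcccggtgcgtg
Rpl3-ps2: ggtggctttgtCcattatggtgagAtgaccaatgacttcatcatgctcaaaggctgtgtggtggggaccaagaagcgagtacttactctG
Rpl3: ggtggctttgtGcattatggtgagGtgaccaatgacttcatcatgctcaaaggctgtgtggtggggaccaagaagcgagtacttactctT
Over the aligned coding sequence, 99.3% of positions were identical for Rpsa-ps10, with 6 differing and a longest identical run of 350 bases. Rps26-ps1 was 99.4% identical, with 2 differing positions and an identical run of 239 bases. Rpl3-ps2 was 98.8% identical, with 14 differing positions and an identical run of 187 bases. A read that falls inside such a run matches both genes. The placing of such reads in the authors' counting is not stated in the labels, so the values of single members are uncertain, and the family sums stand beside them. The list of cytosolic ribosomal protein genes does not hold Rpl21. Of its 42 members, all of them tested, 0 passed, with a median log2 fold change of 0.09 that ran from 0.0057 without Sham 50 mg number 11 to 0.17 without Sham 50 mg number 12, and was 0.034 without Sham 0 mg number 7.

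Igf2, a growth factor of fetal tissue and vessels (chr7:142650766-142666816), and the predicted gene Gm49394 (chr7:142650769-142669942) share exons on the same strand. Igf2 had 8.66 and 12.03 CPM in Sham 50 mg hearts, against 0.347 and 0.462 CPM in Sham 0 mg hearts, and a log2 fold change of 4.66 ± 0.81 with an adjusted p of 0.0491. Gm49394 had 0 counts in both Sham 50 mg libraries and 183 and 375 in Sham 0 mg, and was at least 172-fold lower. Across the 12 libraries the 2 genes replaced each other: Gm49394 had counts only in Sham 0 mg and AngII 50 mg, the 4 libraries in which Igf2 had 4 to 37 counts. The sum of both was 8.66 and 12.03 CPM in Sham 50 mg, against 3.88 and 5.15 CPM in Sham 0 mg. These levels did not overlap, and the log2 fold change of the sum, 1.19 ± 0.38, was not called. Its receptor Igf2r, which clears IGF2 from the cell surface, had 4.16 and 5.88 CPM in Sham 50 mg, against 3.38 and 4.10 CPM in Sham 0 mg, and was not called.

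The other 3 called genes of this kind are Hsd3b7, a bile acid synthesis enzyme, Gm49405 and Gm7666. Hsd3b7 alone had 2.30 and 2.30 CPM in Sham 50 mg hearts, against 0.251 and 0.09999 CPM in Sham 0 mg hearts, and a log2 fold change of 3.76 ± 0.61. Summed with Gm49388, which overlaps it, and with Setd1a, which joins only through Gm49388, it gave 0.03 ± 0.41. Gm49405 gave -2.40 ± 0.32 alone, at 1.38 and 1.61 CPM in Sham 50 mg, against 8.18 and 7.57 CPM in Sham 0 mg. With Doc2g and Nudt8 it gave -1.04 ± 0.33, at 59.6 and 51.5 CPM, against 133 and 94.4 CPM. In both of these units most of the sum came from the partners, so the sum says little about the called gene itself. Gm7666 gave -2.95 ± 0.38 alone and -2.24 ± 0.35 with Fyb, which it overlaps, and this sum was still called (adjusted p 0.0252). With Phb, the prohibitin gene that it copies, added as well, the value was -0.78 ± 0.31. The adjusted p of the 10 genes that lost their call ran between 0.324 and 1 after summing. Summed throughout, 20 units were called, 11 higher and 9 lower. Among these were 5 that had missed the threshold before: Rgcc, Pdk4, Acacb, Fam107a and Hspa1b, the last 2 named for this reason after their values were seen.

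**Figure D2:**
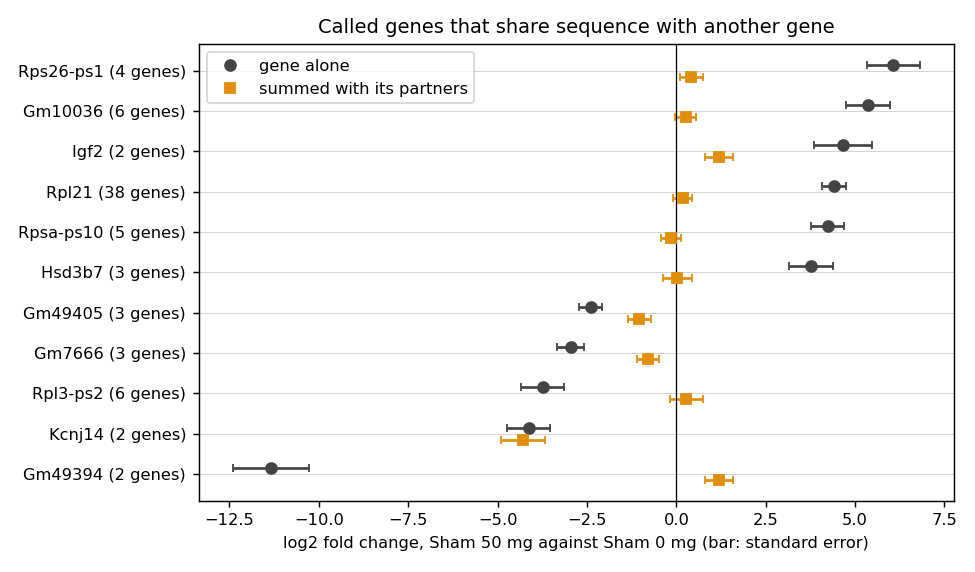
Log2 fold change of Sham 50 mg against Sham 0 mg with its standard error, for the 11 called genes that share sequence, alone (grey circles) and summed with their partners (orange squares); the number of genes summed is in brackets. All but Kcnj14 move towards 0 or past it, and Gm49394 and Igf2 share 1 sum at 1.19.

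**Figure D3:**
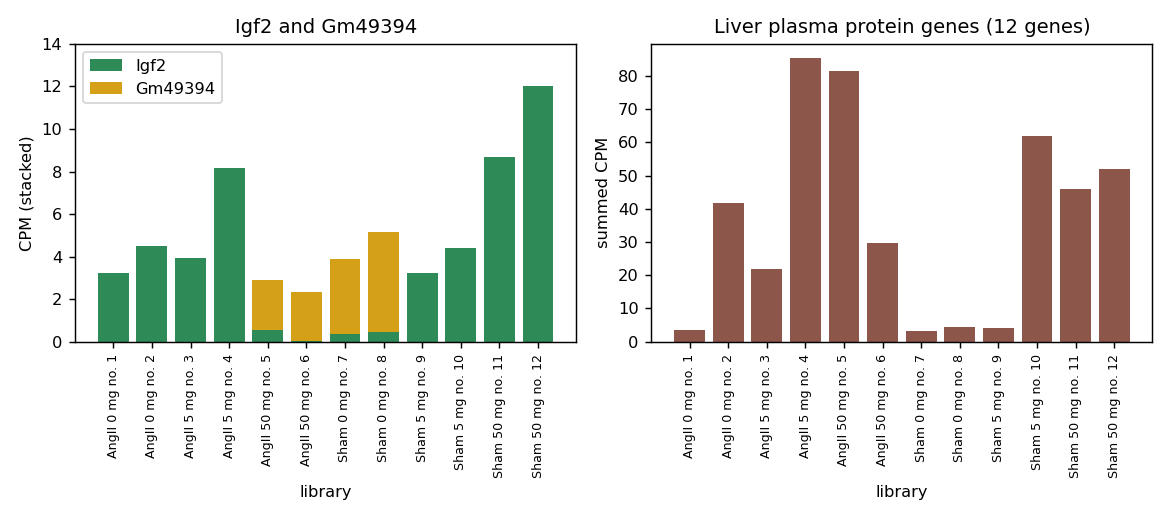
Left, stacked CPM of Igf2 (green) and Gm49394 (yellow) in each of the 12 libraries, by arm and dose. Right, summed CPM of 12 liver plasma protein genes, at 45.9 and 52.0 in Sham 50 mg and at 3.26 and 4.27 in Sham 0 mg.

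Genes of fatty acid uptake and oxidation lay lower as a list. All 30 members were tested, and Ucp3 alone was called (0.149% of all genes tested). All 30 had a negative log2 fold change, with a median of -0.80. In 29 both Sham 50 mg libraries lay below both Sham 0 mg libraries (20.7% of all genes tested). Pdk4, the kinase that shuts off pyruvate dehydrogenase, had 12.4 and 4.96 CPM in Sham 50 mg hearts, against 49.3 and 47.5 CPM in Sham 0 mg hearts. Its log2 fold change of -2.48 ± 0.45 missed the threshold, with an adjusted p of 0.0632. Mlycd, which removes the malonyl-CoA that blocks fatty acid entry into mitochondria, had 6.47 and 5.98 CPM in Sham 50 mg hearts, against 16.7 and 14.9 CPM in Sham 0 mg hearts (log2 fold change -1.35 ± 0.26, adjusted p 0.0761). Acacb, which makes that malonyl-CoA and is not in the list, had 2.70 and 6.65 CPM in Sham 50 mg hearts, against 33.0 and 22.1 CPM in Sham 0 mg hearts (-2.56 ± 0.47, adjusted p 0.0632). For each of the 3 genes the groups did not overlap.

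Nuclear-encoded subunits of oxidative phosphorylation, the respiratory chain and ATP synthase, had 0 of 42 called, 42 negative values and a median of -0.51. In 38 of them both Sham 50 mg libraries lay below both Sham 0 mg libraries (20.7% of all genes tested). Cox4i1, a subunit of complex IV, had 77.0 and 68.8 CPM in Sham 50 mg hearts, against 237 and 105 CPM in Sham 0 mg hearts (-1.23 ± 0.39, adjusted p 0.334). The vehicle libraries differed more than 2-fold between themselves for this gene. Glycolysis and glucose uptake had 0 of 22 called, 20 negative values and a median of -0.52. Pfkm, the muscle phosphofructokinase, had 44.5 and 42.9 CPM in Sham 50 mg hearts, against 82.6 and 74.4 CPM in Sham 0 mg hearts (-0.85 ± 0.29, adjusted p 0.385).

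Cardiomyocyte genes lay lower too. Of 15 cardiomyocyte markers 0 were called, and 14 had a negative value with a median of -0.77. Both Sham 50 mg libraries lay below both Sham 0 mg libraries in 12 of them (20.7% of all genes tested), and above both in 1. Of 24 sarcomere and Z-disc genes 0 were called, and 22 were negative with a median of -0.80. In the same way 21 of these lay below (20.7% of all genes tested) and 1 above. Actn2, the alpha-actinin of the Z-disc, had 51.1 and 33.0 CPM in Sham 50 mg hearts, against 120 and 82.7 CPM in Sham 0 mg hearts (-1.27 ± 0.44, adjusted p 0.383). Myom2, an M-band protein that cross-links myosin, had 52.9 and 69.0 CPM in Sham 50 mg hearts, against 130 and 135 CPM in Sham 0 mg hearts (-1.12 ± 0.28, adjusted p 0.221). In such bulk samples, fewer cardiomyocytes and less of these RNAs per cardiomyocyte cannot be told apart. The metabolic and cardiomyocyte lists both lay lower, and the part of either in the other was not tested.

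Genes of the fetal and hypertrophy programme, which are switched on when heart muscle grows under load, had 0 of 21 called, 8 positive and 13 negative values and a median of -0.23. The median was -0.50 without Sham 50 mg number 11, -0.43 without Sham 0 mg number 8 and -0.09 on log2(TPM + 1). Nppa, the atrial natriuretic peptide, had 617 and 315 CPM in Sham 50 mg hearts, against 324 and 699 CPM in Sham 0 mg hearts. Nppb, the B-type peptide, had 88.8 and 80.8 CPM in Sham 50 mg hearts, against 52.6 and 102 CPM in Sham 0 mg hearts. Both overlapped, with log2 fold changes of -0.13 ± 0.41 and 0.13 ± 0.33, and the libraries of a group differed more than the groups did. The skeletal actin gene Acta1 had 167 and 289 CPM in Sham 50 mg hearts, against 923 and 741 CPM in Sham 0 mg hearts (-1.87 ± 0.44, adjusted p 0.188). The myosin heavy chain Myh7 had 68.9 and 41.7 CPM in Sham 50 mg hearts, against 109 and 87.7 CPM in Sham 0 mg hearts (-0.83 ± 0.41), and Myh6, the adult form, gave -1.01 ± 0.48. Neither Myh7 nor Myh6 was called, and in both the treated libraries lay below the vehicle libraries.

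Matrix and fibrosis genes lay higher. Of 39 members 0 were called, 39 had a positive log2 fold change with a median of 1.35 (0.82 on log2(TPM + 1)), and 33 had both Sham 50 mg libraries above both Sham 0 mg libraries (21.9% of all genes tested). Loxl1, which cross-links elastin, had 14.9 and 15.7 CPM in Sham 50 mg hearts, against 4.53 and 6.17 CPM in Sham 0 mg hearts (1.51 ± 0.29, adjusted p 0.0761). Col3a1, a fibrillar collagen chain, had 98.5 and 83.7 CPM in Sham 50 mg hearts, against 18.5 and 42.9 CPM in Sham 0 mg hearts (1.57 ± 0.41, adjusted p 0.240). The Sham 0 mg libraries were unlike each other for the collagens, with number 7 the lower: Col1a1 had 36.0 and 34.8 CPM in Sham 50 mg, against 6.71 and 20.7 CPM in Sham 0 mg. Postn, a matricellular protein of activated fibroblasts, had 10.5 and 6.13 CPM in Sham 50 mg, against 1.35 and 3.10 CPM in Sham 0 mg (1.90 ± 0.48, adjusted p 0.236). The 11 fibroblast markers had 1 called, Ccdc80 (0.149% of all genes tested were called), and 11 positive values with a median of 0.94. Their summed level was 625 and 635 CPM in Sham 50 mg, against 193 and 340 CPM in Sham 0 mg.

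Macrophage markers had 0 of 15 called and 15 positive values with a median of 1.42. In 12 of them both Sham 50 mg libraries lay above both Sham 0 mg libraries (21.9% of all genes tested). C1qa, a chain of the complement protein C1q made by resident macrophages, had 32.5 and 29.96 CPM in Sham 50 mg hearts, against 7.56 and 14.1 CPM in Sham 0 mg hearts (1.52 ± 0.47, adjusted p 0.326). The summed level of the 15 markers was 175 and 145 CPM in Sham 50 mg, against 42.8 and 86.4 CPM in Sham 0 mg. Endothelial markers had a median of 0.29 over 14 genes, 9 positive and 5 with no overlap on the higher side (21.9% of all genes tested). That median was 0.09 without Sham 50 mg number 11 and 0.17 without Sham 0 mg number 7, and the summed levels overlapped, at 329 and 272 CPM in Sham 50 mg and 293 and 320 CPM in Sham 0 mg. Smooth muscle and pericyte markers had a median of 0.52 over 14 genes, 0.33 without Sham 0 mg number 7 and 0.26 on log2(TPM + 1). Their summed level lay the other way without overlap, at 329 and 239 CPM in Sham 50 mg, against 384 and 335 CPM in Sham 0 mg. No marker of either list was called.

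Glucocorticoid-responsive genes had 2 of 17 called, Errfi1 and Cdkn1a, against 0.149% of all genes tested, with 15 positive and 2 negative values. The median was 0.86, and 0.53 on log2(TPM + 1). Both Sham 50 mg libraries lay above both Sham 0 mg libraries in 9 of the 17 (21.9% of all genes tested). They lay below both in 2 (20.7% of all genes tested). The 2 negative members, Pdk4 and Angptl4, were these 2, and they stand in the oxidation list as well. Fkbp5 and Tsc22d3, also targets of the glucocorticoid receptor, were picked after their values were seen, and neither was called. The part of glucocorticoids in these values was not tested. Tsc22d3 had 36.0 and 34.2 CPM in Sham 50 mg hearts, against 11.1 and 10.8 CPM in Sham 0 mg hearts (1.68 ± 0.35, adjusted p 0.105). Fkbp5 had 12.6 and 21.6 CPM in Sham 50 mg hearts, against 1.83 and 6.22 CPM in Sham 0 mg hearts (2.08 ± 0.53, adjusted p 0.236). In both, the treated libraries lay above the vehicle libraries. The 24 immediate-early genes, the first to be transcribed after a stimulus, had 0 called and 24 positive values with a median of 0.63. In 13 of the 24 both Sham 50 mg libraries lay above both Sham 0 mg libraries (21.9% of all genes tested). Egr2 among them had 64 and 60 counts in Sham 50 mg and 0 in both Sham 0 mg libraries, at least 44.3-fold higher, and did not pass (adjusted p 0.148).

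The insulin-like growth factor system had 1 of 21 called (0.149% of all genes tested), Igf2 with the overlap described above. The median of this system was 0.53, and 0.24 on log2(TPM + 1). Its binding protein Igfbp4 had 57.7 and 67.1 CPM in Sham 50 mg hearts, against 21.5 and 32.2 CPM in Sham 0 mg hearts (1.22 ± 0.49, adjusted p 0.450). Store-operated calcium entry, the refilling of cell calcium through ORAI channels, had 0 of 8 tested genes called, 5 positive and 3 negative values, and no settled direction. The median was 0.41, but -0.10 without Sham 0 mg number 7, 0.25 without Sham 50 mg number 11, -0.45 on log2(TPM + 1) and -0.63 on log2(TPM + 0.1). Its summed level lay lower without overlap, at 19.9 and 22.99 CPM in Sham 50 mg, against 34.7 and 34.9 CPM in Sham 0 mg, most of it from Saraf. Orai1, the channel, had 1.6001 and 1.91 CPM in Sham 50 mg hearts, against 0.694 and 1.37 CPM in Sham 0 mg hearts. Saraf, which switches the channel off, had 12.2 and 15.6 CPM in Sham 50 mg hearts, against 28.6 and 27.5 CPM in Sham 0 mg hearts (-1.01 ± 0.35, adjusted p 0.387).

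**Figure D4:**
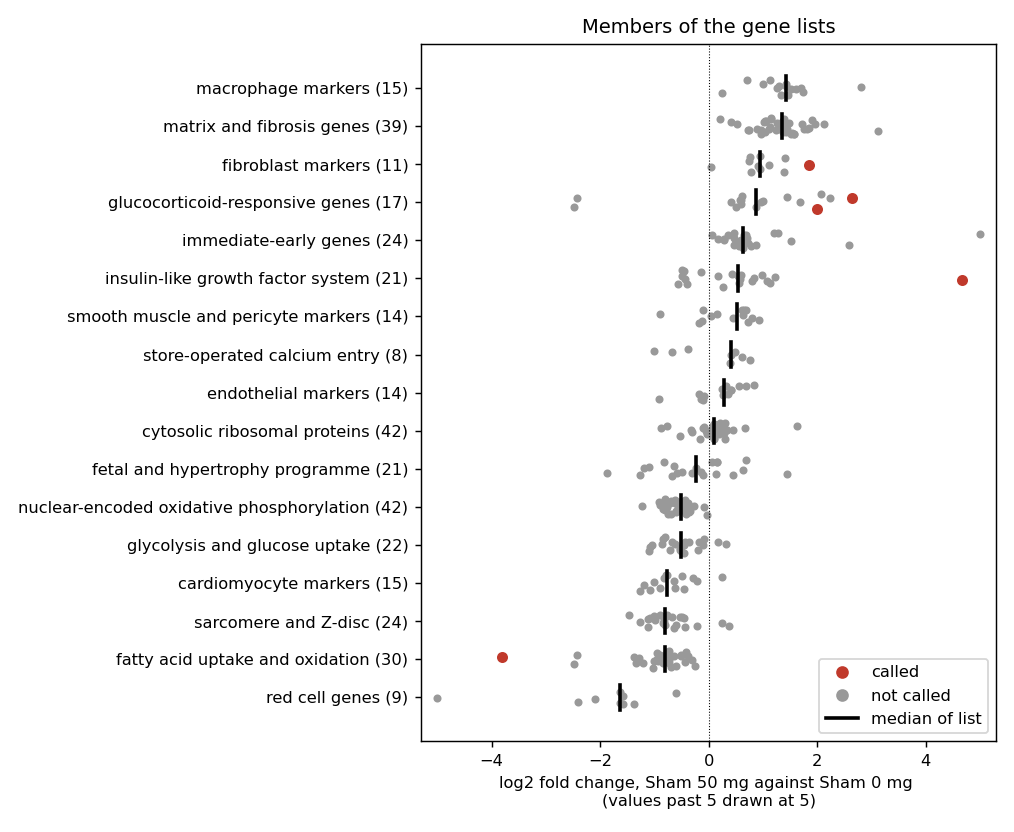
Log2 fold change of Sham 50 mg against Sham 0 mg for the tested members of 17 gene lists (the liver list is not drawn, and values past 5 are drawn at 5), 1 point per gene, with the list's median as a bar and called genes in red. Macrophage, matrix and fibroblast lists lie to the right of 0, with medians of 1.42, 1.35 and 0.94, and oxidation, sarcomere and red cell lists to the left, with medians of -0.80, -0.80 and -1.63.

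Markers of cells that are not part of the heart wall also lay apart. Red cell genes had 0 of 9 called, 9 negative values with a median of -1.63, and 9 with no overlap on the lower side (20.7% of all genes tested). Their summed level was 293 and 613 CPM in Sham 50 mg, against 1751 and 1316 CPM in Sham 0 mg. Hba-a2, an alpha globin gene, had 56.2 and 93.1 CPM in Sham 50 mg hearts, against 445 and 343 CPM in Sham 0 mg hearts (-2.40 ± 0.45, adjusted p 0.0643). With its near-identical copy Hba-a1 added, the value was -1.86 ± 0.47.

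The 12 liver plasma protein genes, which hepatocytes express, had 0 called and 12 with no overlap, all on the higher side (21.9% of all genes tested). Their fitted median of 8.87 rests on genes with no count in Sham 0 mg and depends on the prior count. Albumin (Alb) had 828 and 1344 counts in Sham 50 mg, against 48 and 8 counts in Sham 0 mg. Apoa1, the main protein of high-density lipoprotein, had 193 and 445 counts in Sham 50 mg and 0 in both Sham 0 mg libraries, at least 215-fold higher (adjusted p 0.312). Ahsg, the plasma protein fetuin-A, was at least 132-fold higher (adjusted p 0.245). All 12 genes had counts in 8 of the 12 libraries. The exceptions were both Sham 0 mg libraries, with 5 and 2 of the 12 genes, Sham 5 mg number 9 with 3 and AngII 0 mg number 1 with 7. The libraries of 1 group therefore differed in this respect outside the comparison, as in Sham 5 mg, with 3.99 and 61.9 CPM summed. The part of blood and liver RNA in the called genes was not tested.

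The 5 mg sham group is the other dose of the arm. Of 16723 genes tested, 12 differed between Sham 50 mg and Sham 5 mg (0.0718%), 7 higher (0.0419%) and 5 lower (0.0299%). Both comparisons use the Sham 50 mg libraries. Gdpd3 gave a log2 fold change of 7.35 for 50 against 5 mg (adjusted p 0.034), Kcnj14 -4.06 (0.034) and Tle6 -2.77 (0.0499). Rgcc, a cell cycle regulator induced by complement, had 6.13 and 6.55 CPM in Sham 0 mg, 3.83 and 4.88 CPM in Sham 5 mg and 31.3 and 31.4 CPM in Sham 50 mg. It differed from 5 mg (2.84, adjusted p 0.034) and missed the threshold against vehicle (2.30 ± 0.41, adjusted p 0.0546). Errfi1 at 5 mg had 4.92 and 5.502 CPM, between the vehicle and 50 mg libraries, and 50 against 5 mg gave 1.22 (adjusted p 0.296). Between 50 and 5 mg, Baiap2l1 and Cdo1 gave log2 fold changes of 0.63 and 0.14, neither of them called. In the AngII 0 mg libraries, without gastrodin, Baiap2l1 had 0.976 and 3.47 CPM and Cdo1 0.244 and 0.671 CPM. For both genes the Sham 0 mg libraries therefore stood apart from these as well.

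The same dose in the AngII arm gave another picture for some genes. The difference between the arms in the effect of 50 mg against vehicle was called for 5 genes (0.0299%), with 4 differences positive (0.0239%) and 1 negative (0.00598%). Of these genes Errfi1 alone has no partner in sequence. Errfi1 had 3.26 and 3.96 CPM in AngII 50 mg hearts, against 10.9 and 7.25 CPM in AngII 0 mg hearts. Its log2 fold change in that arm was -1.33 ± 0.31, which was not called by itself, where the sham arm had 2.63. The difference was 3.96 ± 0.45 with an adjusted p of 0.00466. With overlapping and near-identical genes summed, the difference was called for 1 gene. For Cdkn1a the difference was 2.50 ± 0.44 (adjusted p 0.129), for Ddit4 2.81 ± 0.51 (0.144) and for Ccdc80 2.02 ± 0.45 (0.270), so that no difference between the arms was shown for these. Ucp3 gave -3.80 for sham and -1.29 under AngII, with a difference of -2.51 ± 0.78 (adjusted p 0.542).

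**Figure D5:**
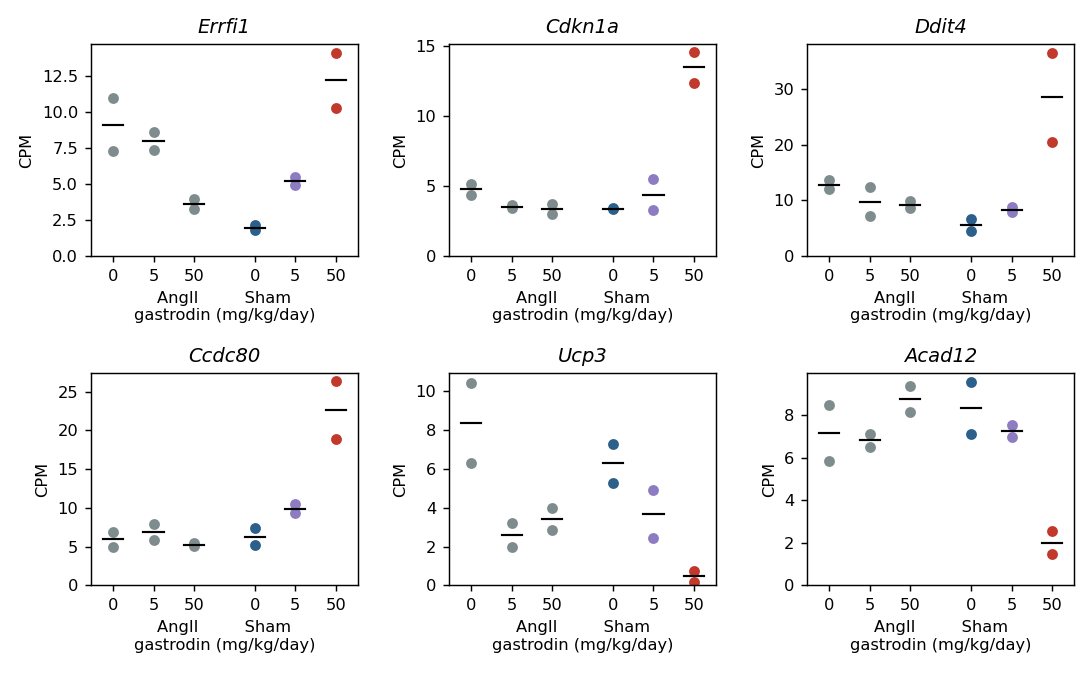
CPM of 6 genes in each library by arm and gastrodin dose (points, with the group mean as a bar; AngII in grey). The group means of Errfi1, Cdkn1a, Ddit4 and Ccdc80 are highest in Sham 50 mg, and those of Ucp3 and Acad12 lowest. For Errfi1, AngII 0 mg number 1 at 10.9 CPM lies above Sham 50 mg number 12 at 10.3 CPM. In the AngII arm Errfi1 at 50 mg lies at 3.26 and 3.96 CPM, under both AngII 0 mg libraries.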

How the data were processed

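Members are the libraries named by the labels. They, the gene lists and the rule for named genes were chosen with earlier results of these data known. The deposited matrix holds raw counts per gene, and the authors' deposited TPM values are named so per the file headers. Per the submitters' processing notes, HISAT2 2.2.1, StringTie 2.1.3 and GRCm38.p6 were used; which step each served, the strandedness and the treatment of multi-mapping reads are unstated there. Positions and overlaps came from GENCODE M21 on GRCm38. In R 4.3.3, edgeR 4.0.16 kept genes by filterByExpr, scaled by TMM and fitted 6 group means over 12 libraries (6 residual degrees of freedom). The quasi-likelihood F-test was 2-sided with Benjamini-Hochberg adjustment, threshold 0.05. SE is the log2 fold change over the root of F. CPM use the TMM-adjusted library size. The pipeline was tested on simulated data. Near-identical genes are pairs that share at least 50% of the 31-base words of the smaller gene. Pairs with a gene in common were chained into a single unit, so members of a unit need not all resemble each other. Alternatives used DESeq2 1.42.0 and limma 3.58.1, other filters, the TPM, and each library left out. Named genes are those called, the 10 smallest p in each direction at a mean log2 CPM of at least 1 without predicted genes, 10 fixed genes, 3 members per described list with the smallest p and calls of the other contrasts, 82 in all.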

Additional observations from a re-analysis of the deposited data

Results flagged for a closer look

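The effect of 50 mg against vehicle differed between the sham and AngII arms for 5 genes, by the test of the difference itself in edgeR's quasi-likelihood fit. The differences in log2 fold change, sham minus AngII, were -21.85 ± 1.48 for Gm49394 (adjusted p 0.00187), 4.4001 ± 0.45 for Rpl21 (0.00187), 3.96 ± 0.45 for Errfi1 (0.00466), 8.55 ± 1.14 for Igf2 (0.0186) and 5.85 ± 0.83 for Gm10036 (0.0293). Gm49394 had no count in Sham 50 mg and AngII 0 mg, so that its value depends on the prior count. Summed, Igf2 and Gm49394 gave a difference of 1.76 ± 0.54 (adjusted p 0.521), the family of Rpl21 gave 0.18 ± 0.38 (0.991), and the family of Gm10036 gave 0.01 ± 0.43 (1).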

How the results depend on the processing

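No paired analysis was possible because the library numbers 1 to 12 are shared by no 2 groups. The counts of genes called were 25 for 50 mg against vehicle, 12 for 50 against 5 mg and 5 for the difference between the arms. In that order, the DESeq2 Wald test gave 281, 154 and 114, no filter on low counts 354, 236 and 231, and limma on log2(TPM + 1) 11, 6 and 3. With log2(TPM + 0.1) the first was 14 and the third 3, limma-voom gave 4 for the second, and a fit of the compared groups alone gave 65 for the first. With each library left out they ran from 1 to 65, from 1 to 33 and from 2 to 23; the first was 9 without Sham 50 mg number 12, 1 without Sham 0 mg number 7, and 39 to 65 without AngII numbers 1 to 4. The second was 1 without Sham 5 mg number 9, 3 without either Sham 50 mg library, and 30 and 33 without AngII 5 mg numbers 3 and 4. The third was 2 without Sham 0 mg number 7 and 8 to 23 without AngII numbers 2 to 5 or Sham 50 mg number 11. Summing of genes was chosen after seeing the data: for overlapping genes the third was 3. Summing copies gave 4 for the second and 3 for the third, and summing both gave 4 and 1. Other planned settings moved the 3 counts by less than 1.5 times. Signs turned, on the log2 scale, for Gm49394 with overlaps summed (1.19, also with both), and with copies or both summed for Rpsa-ps10 (-0.15 and -0.15), Rpl3-ps2 (0.28 and 0.28) and Rpl26 (0.13 and 0.12). With each library left out, Nppb ran from -0.27 (without Sham 0 mg number 7) to 0.69, and Nppa from -0.70 to 0.53 (without Sham 0 mg number 8), with 0.27 without Sham 50 mg number 12. Of the list medians described, that of store-operated calcium entry turned sign, from 0.41 to -0.10 without Sham 0 mg number 7, -0.45 on log2(TPM + 1) and -0.63 on log2(TPM + 0.1). The cause was not tested. With 2 libraries per group, the 7.003 to 10.4% of counts outside mitochondrial and ribosomal RNA limit what can be seen in genes of low level.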
